A study of Mus musculus with 16 samples.

Results

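The 8 genes *Ramp3*, *Fgfr1*, *Sgip1*, *Myof*, *Scin*, *Eml1*, *Lhfpl2* and *Ypel4* were chosen by their measured rises after prostaglandin E2 (PGE2) in CD8+ T cells, as the genes of the largest fold changes in either stimulation state, and they make up 8 of the 54532 genes counted. RNA-seq was performed on 16 samples of TCF1+CD8+ T cells in 4 groups of 4 replicates. All cells came from the spleens of C57BL/6J mice, were isolated as naive CD8+ T cells and were activated repeatedly for 4 days in culture, with anti-CD3/CD28 beads and low-dose IL-2. Cells then spent 1 h with PGE2 at 100 ng/ml or without it, followed by 4 h in IL-2 at 85 U/ml, either alone (unstimulated) or together with the same kind of beads at 1 bead per cell (stimulated). Unstimulated cells had therefore received IL-2 too, and what cultures with the same replicate number have in common is not given in the labels.

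PGE2 is a lipid mediator made by tumours, stroma and myeloid cells, and it acts on T cells through the receptors EP2 and EP4. Both receptors couple to the stimulatory G protein, so that adenylyl cyclase raises cAMP, protein kinase A is activated and CREB-family factors drive transcription from cAMP response elements. The 8 genes do not belong to 1 family. *Ramp3* encodes a single-pass partner that traffics the calcitonin receptor-like receptor to the cell surface and sets its ligand preference, and *Fgfr1* encodes a receptor tyrosine kinase for fibroblast growth factors. *Sgip1* encodes an adaptor of clathrin-mediated endocytosis. *Myof* (myoferlin) encodes a membrane protein with C2 domains that acts in membrane fusion and repair, *Scin* (scinderin) a calcium-dependent actin-severing protein of the gelsolin family and *Eml1* a microtubule-binding protein. *Lhfpl2* encodes a tetraspan membrane protein and *Ypel4* a member of the small, conserved Yippee-like family.

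The sequence before the start site is shown for those 3 of the genes in which letters of a cAMP or AP-1 element were found, and for *Ramp3* and *Myof*, the genes of the highest level per length and of the largest rise, in which none was found. RefSeq windows of 300 bases (250 before to 50 after the start, GRCm38.p6) were held for 7 of the 8 genes, all but *Fgfr1*. Searched on both strands were the full cAMP response element TGACGTCA, its short form TGACG, which is also part of the full element, and the AP-1 element TGANTCA. Capitals mark the matches, each sequence runs 5′ to 3′ on the strand of its gene, and each ends before the RefSeq start and holds no exon base of its gene in GENCODE M21. The stretches are chr2:84733954-84734057 (plus strand) for *Ypel4*, chr12:108370903-108370956 (plus) for *Eml1*, chr4:102759885-102760134 (plus) for *Sgip1*, chr11:6658283-6658520 (plus) for *Ramp3* and chr19:38043578-38043827 (minus) for *Myof*.
Ypel4: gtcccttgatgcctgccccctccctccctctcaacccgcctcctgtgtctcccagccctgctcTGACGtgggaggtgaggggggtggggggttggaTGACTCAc
Eml1: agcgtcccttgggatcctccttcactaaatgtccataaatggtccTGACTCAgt
Sgip1: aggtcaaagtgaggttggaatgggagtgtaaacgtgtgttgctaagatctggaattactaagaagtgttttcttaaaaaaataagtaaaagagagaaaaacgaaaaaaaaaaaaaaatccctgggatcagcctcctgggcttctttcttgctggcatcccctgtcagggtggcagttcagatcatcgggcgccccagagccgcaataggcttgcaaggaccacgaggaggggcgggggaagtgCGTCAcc
Ramp3: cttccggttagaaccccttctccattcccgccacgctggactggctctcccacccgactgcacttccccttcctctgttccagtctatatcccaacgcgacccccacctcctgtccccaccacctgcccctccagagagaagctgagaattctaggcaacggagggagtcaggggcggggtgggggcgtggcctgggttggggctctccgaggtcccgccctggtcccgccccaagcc
Myof: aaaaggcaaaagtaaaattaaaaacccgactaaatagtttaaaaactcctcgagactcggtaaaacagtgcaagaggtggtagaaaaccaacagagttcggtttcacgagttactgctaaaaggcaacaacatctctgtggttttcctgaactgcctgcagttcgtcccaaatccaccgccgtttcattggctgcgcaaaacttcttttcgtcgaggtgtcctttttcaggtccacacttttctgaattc

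In *Ypel4* the short element stood 187 bases and the AP-1 element 154 bases before the RefSeq start, and both lay upstream of the first GENCODE exon. In *Eml1* the AP-1 element stood 205 bases before the start of the first of its 5 windows. In *Sgip1* the short element, on the other strand, stood 7 bases before the RefSeq start, which lies 18838 bases inside the gene as GENCODE draws it. No window of the 7 genes held the full element. Of all 32851 windows, 20.8% held the short element, 7.81% the AP-1 element, 1.79% the full element and 72.6% none of these. The windows of *Ramp3*, *Lhfpl2*, *Scin* and *Myof* thus shared with most windows that none of the letters searched was in them, and a match is a run of letters, not a measured binding site. They were also unlike in composition, from 79.3% G and C with 40 CpG in *Lhfpl2* to 46.3% with 15 CpG in *Myof*, against a median of 52.7% and 7 CpG over all windows.

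The samples held 22678254 to 42950763 counts. The CD8+ T cell markers *Cd3e*, *Cd8a*, *Cd8b1*, *Tcf7* and *Trac* were counted in each group and summed to between 2289 and 3995 CPM (counts scaled by depth and by trimmed means of M values) in every sample, and *Tcf7*, which encodes TCF1, was at 913 to 1540 CPM in unstimulated and at 289 to 469 CPM in stimulated samples. Several of the 8 genes are known from endothelial, stromal or neural cells. The stromal list (5 genes) summed to at most 0.693 CPM in any sample, with *Col3a1* at 0 in every group. The endothelial list (4 genes) moved with PGE2, from 97.1 to 121 CPM in unstimulated untreated, 133 to 164 in unstimulated PGE2, 47.7 to 51.5 in stimulated untreated and 65.4 to 76.4 in stimulated PGE2 samples. Almost all of it was *Pecam1*, which T cells express as well. *Cdh5*, *Kdr* and *Tek* had at most 0.529 CPM each in any sample, and *Tek* was at 0 in the unstimulated PGE2 group. The NK list (3 genes) consisted of *Eomes*, which CD8+ T cells also use, and it moved with both treatments, from 12.3 to 24.1 CPM in unstimulated untreated, 5.55 to 10.9 in unstimulated PGE2, 112 to 178 in stimulated untreated and 36.5 to 128 in stimulated PGE2 samples, while *Ncr1* was at 0 in every group. The dendritic list (4 genes, mostly *Zbtb46* and *Xcr1*) was higher with beads, at 2.51 to 5.90 CPM in unstimulated untreated, 3.62 to 6.16 in unstimulated PGE2, 10.7 to 16.3 in stimulated untreated and 15.8 to 17.8 in stimulated PGE2 samples, while *Siglech* was at 0 in every group. The myeloid list (5 genes, mostly *Cd68*) was at 3.04 to 4.70 CPM in unstimulated untreated and 3.87 to 6.57 in unstimulated PGE2 samples. In stimulated samples it was at 3.23 to 4.06 without and 3.33 to 4.90 with PGE2. The B cell list (4 genes) reached 6.31 CPM, and *Cd4* with *Foxp3*, mostly *Foxp3*, reached 9.52 CPM, both in unstimulated PGE2 samples. Several of the 8 genes lay below these sums. Whether any of these lists has a part in the values below was not tested. These are bulk samples, so a gene that is on in fewer cells cannot be told apart from one with less RNA in each cell.

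After PGE2 each of the 8 genes was higher in all 4 treated than in all 4 untreated samples, in both stimulation states. Such separation was found for 12.1% of the 14505 genes tested in unstimulated and for 9.58% of the 13922 genes tested in stimulated cells. Since the genes were selected for these rises, the fold changes after PGE2 are given as descriptions, with the error of the edgeR fit and without a test. Spread was larger than counting error, since the chi-square of counts between replicates was 7.89 to 52.6 per degree of freedom, where counting error alone gives 1.

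*Ramp3* (ENSMUSG00000041046, chr11:6658521-6677475, plus strand) had the highest mean level of the 8 genes per length (FPKM) in every group. In unstimulated untreated samples it was at 1.06, 0.966, 3.32 and 4.82 CPM in replicates 1 to 4, and with PGE2 at 26.1, 35.2, 58.3 and 72.6 CPM. In stimulated samples it was at 7.04, 7.64, 15.3 and 17.3 CPM without PGE2 and at 84.4, 94.3, 123 and 141 CPM with it. No group overlapped with another, and the order from low to high was unstimulated untreated, stimulated untreated, unstimulated PGE2 and stimulated PGE2. The rise after PGE2 was 4.21 (SE 0.46) on the log2 scale in unstimulated cells, an 18.5-fold change, and 3.25 (SE 0.31), 9.49-fold, in stimulated cells. Replicates 3 and 4 were above replicates 1 and 2 in every group, and within a replicate number the ratio was 14.9 to 34.2 in unstimulated and 8.01 to 12.2 in stimulated cells.

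*Fgfr1* (ENSMUSG00000031565, chr8:25513654-25575718, plus strand) had the smallest rise of the 8 genes after PGE2 in unstimulated cells. Its CPM values were 6.00, 4.73, 4.73 and 3.95 in unstimulated untreated and 14.3, 12.9, 9.94 and 10.2 in unstimulated PGE2 samples. With beads they were 0.397, 0.881, 0.525 and 0.549 without PGE2 and 2.99, 3.31, 2.85 and 3.08 with PGE2. All stimulated PGE2 samples therefore lay above the stimulated untreated samples but below every unstimulated untreated sample. The rise after PGE2 was 1.31 (SE 0.15), 2.48-fold, in unstimulated and 2.39 (SE 0.24), 5.24-fold, in stimulated cells.

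*Sgip1* (ENSMUSG00000028524, chr4:102741297-102973628, plus strand) had tight replicates once PGE2 was present. In unstimulated cells it went from 0.221, 0.832, 0.957 and 0.542 CPM to 6.99, 8.92, 9.78 and 7.69 CPM. In stimulated cells it went from 0.265, 0.110, 0.525 and 0.465 CPM to 5.34, 5.32, 6.45 and 5.64 CPM. The untreated groups overlapped with each other, and both PGE2 groups stood apart from them and from one another. The log2 rises were 3.67 (SE 0.29) and 4.10 (SE 0.31), that is 12.7-fold and 17.1-fold.

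**Figure D1:**
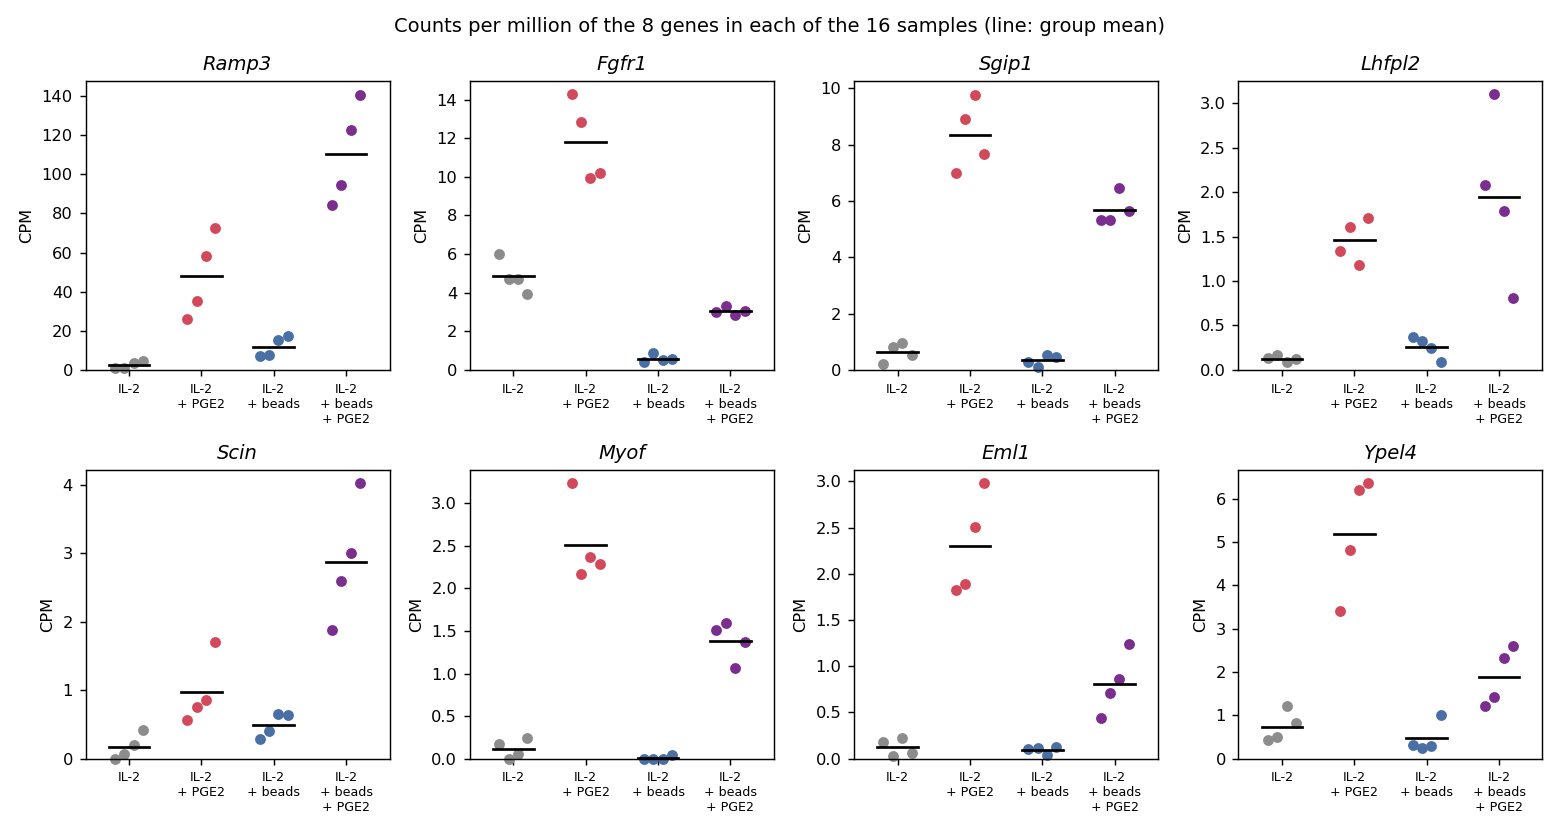
CPM (counts scaled by depth, on linear axes from 0) of each of the 8 genes in the 16 samples, with replicates 1 to 4 from left to right within a group and a line at the group mean. Every PGE2 sample lies above every untreated sample of the same stimulation state, and *Fgfr1* is the gene whose stimulated PGE2 samples (2.85 to 3.31 CPM) lie below its unstimulated untreated samples (3.95 to 6.00 CPM).

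*Myof* (ENSMUSG00000048612, chr19:37899036-38043577, minus strand) came closest to being absent without PGE2. It had 0.176, 0, 0.0563 and 0.241 CPM in unstimulated untreated samples and 3.23, 2.17, 2.37 and 2.29 CPM with PGE2. In the stimulated untreated group 3 samples had no count and replicate 4 had 1 count (0.0422 CPM), against 1.51, 1.59, 1.07 and 1.37 CPM with PGE2. The rise was 4.41 (SE 0.46), 21.3-fold, in unstimulated cells, the largest of all genes tested there. In stimulated cells the ratio of summed counts, 151 against 1, was 155 after scaling, with an exact 95% counting interval of 27.4 to 6151. The fitted log2 value of 6.71 for that comparison depends on how a group with 1 count is handled and is no bound.

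*Eml1* (ENSMUSG00000058070, chr12:108370957-108539617, plus strand) was at 0.176, 0.0333, 0.225 and 0.0602 CPM in unstimulated untreated samples and at 1.83, 1.89, 2.51 and 2.98 CPM with PGE2. With beads it was at 0.106, 0.110, 0.0404 and 0.127 CPM and at 0.437, 0.711, 0.862 and 1.24 CPM with PGE2. The untreated groups overlapped, and the unstimulated PGE2 group was above the stimulated PGE2 group without overlap. The rises were 4.21 (SE 0.41), 18.5-fold, and 3.01 (SE 0.45), 8.05-fold, the first from only 15 counts in the 4 untreated samples together and the second from 11.

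*Scin* (ENSMUSG00000002565, chr12:40059769-40134228, minus strand) had 0, 0.0666, 0.197 and 0.422 CPM in unstimulated untreated and 0.562, 0.760, 0.854 and 1.71 CPM in unstimulated PGE2 samples. With beads it had 0.291, 0.404, 0.646 and 0.634 CPM without and 1.88, 2.59, 3.00 and 4.02 CPM with PGE2. As for *Ramp3*, the highest group was stimulated PGE2, which stood apart from the other 3 groups, while neighbours in the order below it overlapped. Its rises were 2.41 (SE 0.61), 5.31-fold, and 2.57 (SE 0.32), 5.95-fold.

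*Lhfpl2* (ENSMUSG00000045312, chr13:94057796-94195409, plus strand) was at 0.132, 0.166, 0.0845 and 0.120 CPM in unstimulated untreated and at 1.34, 1.60, 1.18 and 1.71 CPM in unstimulated PGE2 samples. With beads it was at 0.371, 0.331, 0.242 and 0.0845 CPM without and at 2.08, 3.10, 1.78 and 0.812 CPM with PGE2. Replicate 4 was the lowest of both stimulated groups. The rises were 3.54 (SE 0.30), 11.6-fold, and 2.85 (SE 0.46), 7.21-fold.

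*Ypel4* (ENSMUSG00000034059, chr2:84734058-84738655, plus strand) was at 0.441, 0.499, 1.21 and 0.813 CPM in unstimulated untreated and at 3.41, 4.81, 6.20 and 6.36 CPM in unstimulated PGE2 samples. With beads it was at 0.318, 0.257, 0.283 and 1.01 CPM without and at 1.21, 1.42, 2.32 and 2.61 CPM with PGE2. The highest group stood apart from the other 3, whose neighbours in the order overlapped. Its rises were 2.79 (SE 0.31), 6.91-fold, and 2.06 (SE 0.45), 4.16-fold, the smallest of the 8 in stimulated cells.

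**Figure D2:**
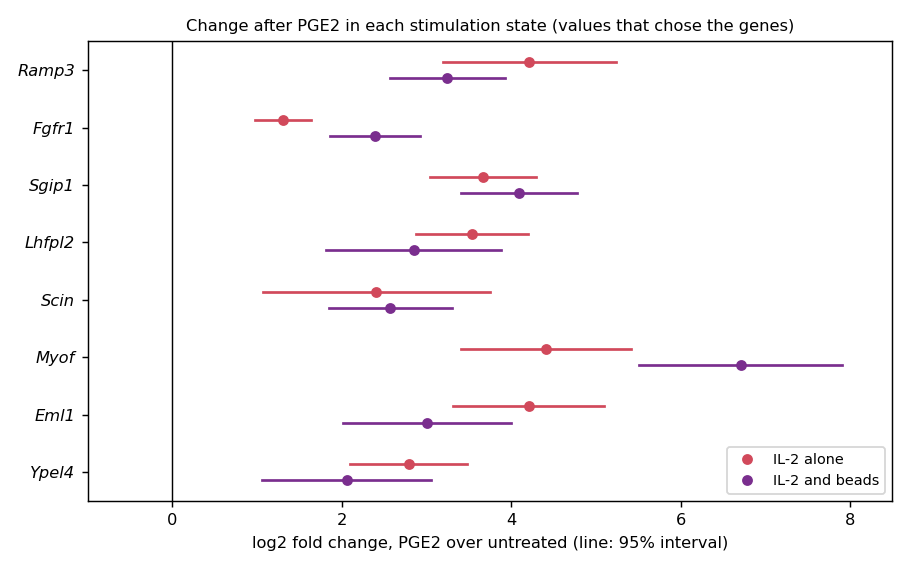
Log2 fold change after PGE2 with its 95% interval for the 8 genes in unstimulated (IL-2 alone) and stimulated (IL-2 and beads) cells, from edgeR fits of 4 against 4 samples. All values are above 0 because the genes were chosen for them, and *Fgfr1* in unstimulated cells is the smallest at 1.31.

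The fold changes after PGE2 differed between the stimulation states by -1.18 to 2.35 on the log2 scale. The largest gaps in favour of stimulated cells were those of *Myof* (2.35, 95% interval 0.05 to 4.64, with the single count noted above) and *Fgfr1* (1.10, 0.51 to 1.69). For the other 6 genes the interval included 0, and the widest, that of *Scin*, ran from -1.51 to 1.88, so that a difference of that size in either direction was not detectable. The difference is built from the values that chose the genes, and it is given without a test. Whether an interval includes 0 is not to be read as a test either.

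In unstimulated cells the 8 genes took places 1, 2, 3, 6, 7, 10, 18 and 132 among the rises of 14505 genes, with *Fgfr1* last. Genes not chosen that stood among them included *Fam178b* (4.05 on the log2 scale), *Gucy2c* (4.03) and *Syt13* (3.27), each with a mean under 1 CPM over both groups. In stimulated cells they took places 1, 3, 4, 5, 6, 8, 9 and 20 of 13922, and *Muc3* (6.12) and *Pom121l2* (2.72) stood among them. With the limit of a mean of 1 CPM, a call and no overlap between groups, the last of the 5 leading genes in unstimulated cells was *Ypel4* (2.79) and the next was *Gng4* (2.66), a G protein gamma subunit. Under the same limits the last of the 5 leading genes in stimulated cells was *Fgfr1* (2.39) and the next was *Gpld1* (2.26).

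Per length, only *Ramp3* reached a high level. Its mean was 1.75 FPKM (fragments scaled by gene length and depth) in unstimulated untreated and 33.5 FPKM in unstimulated PGE2 cells, and 8.09 and 76.0 FPKM in stimulated cells, where PGE2 brought it to percentile 97.1 of all genes with a value above 0. The mean of *Ypel4* was 1.91 FPKM and that of *Fgfr1* 1.15 FPKM in unstimulated PGE2 cells. The other 5 genes stayed under 1 FPKM on average in all 4 groups. With PGE2 and beads, *Scin* had 0.908, *Sgip1* 0.532, *Lhfpl2* 0.220, *Myof* 0.104 and *Eml1* 0.103 FPKM. Without PGE2 the lowest mean FPKM was that of *Myof* in stimulated cells, at percentile 0.205, and 11061 genes reached 1 FPKM in that group. In the name of genes switched on from low, the low untreated level held for *Sgip1*, *Myof*, *Eml1*, *Lhfpl2*, *Scin* and *Ypel4*. Their untreated means were at most 0.269 FPKM, that of *Ypel4* in unstimulated cells (percentile 43.3). Since all of these but *Ypel4* stayed under 1 FPKM with PGE2 too, switched on means no more than a rise at a low level for them. The low untreated level did not hold for *Ramp3*, whose untreated mean was at percentile 59.2 in unstimulated and 76.4 in stimulated cells. For *Fgfr1* it held less in unstimulated cells (0.467 FPKM, percentile 48.2).

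**Figure D3:**
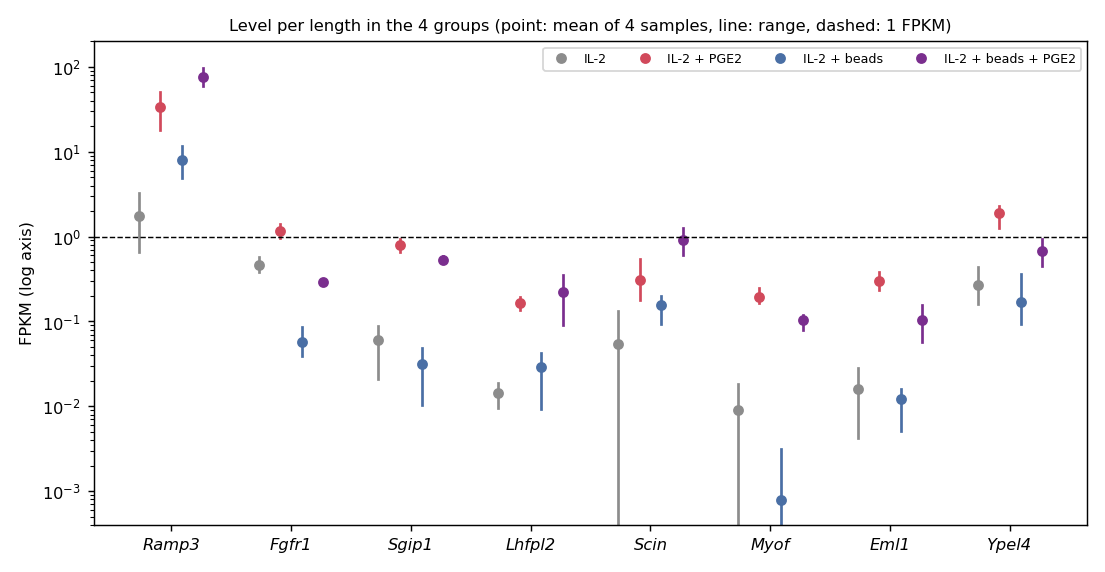
Mean FPKM (points, log axis) and range (lines) of the 8 genes in the 4 groups of 4 samples, with a dashed line at 1 FPKM, where a line that reaches the lower edge includes a sample at 0. *Ramp3* rises from 1.75 to 76.0 FPKM across the groups, while *Sgip1*, *Lhfpl2*, *Scin*, *Myof* and *Eml1* have means under 1 FPKM throughout.

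After beads *Ramp3* rose and *Fgfr1* fell, both without and with PGE2. The rule that chose them used the PGE2 comparisons and not this one, but the same libraries and groups. A gene chosen for a high or low group is favoured to move in one direction after beads. Under the limits given above, *Fgfr1*, *Scin* and *Lhfpl2* were among the 5 leading rises in stimulated cells only. This favours their fall after beads without PGE2. *Eml1*, *Ypel4* and *Myof* were among those in unstimulated cells only, which favours their rise. The adjusted p-values for beads make no allowance for that choice. Called here means an edgeR quasi-likelihood adjusted p (Benjamini-Hochberg over all genes tested) below 0.05 and a change of at least 2-fold. Without PGE2, 23.2% of 14205 genes were called after beads, and so were 2 of the 5 genes that passed the filter on low counts. *Ramp3* rose by 2.14 (SE 0.45, adjusted p = 0.000933) on the log2 scale and *Fgfr1* fell by 3.06 (SE 0.25, adjusted p = 3.16e-07), each without overlap between the groups. *Scin* (1.34, SE 0.60, adjusted p = 0.0654), *Sgip1* (-0.99, SE 0.48, adjusted p = 0.0863) and *Ypel4* (-0.76, SE 0.47, adjusted p = 0.172) did not pass.

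Whether those 3 passed depended on single libraries and on the pairing. With the replicate number as a block, *Scin* was called (1.54, adjusted p = 0.0199, over its alternatives 0.00988 to 0.159), as it was without unstimulated untreated replicate 4 (2.20, adjusted p = 0.00988) or without stimulated untreated replicate 1 (1.55, adjusted p = 0.0428). *Sgip1* was called without unstimulated untreated replicate 1 (-1.24, adjusted p = 0.0241, over its alternatives 0.0241 to 0.262). *Ypel4* was called without stimulated untreated replicate 4 (-1.39, adjusted p = 0.0133, over its alternatives 0.0133 to 0.498). *Myof*, *Lhfpl2* and *Eml1* had 0 to 14 counts per sample in these 2 groups and were not tested. In 1 fit of all 16 samples *Myof* was called (-3.21, adjusted p = 0.0110) on 14 counts against 1. It passed the filter of that fit only through the PGE2 samples (345 and 151 counts), which are high by its choice.

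With PGE2 present all 8 genes passed the filter, in samples that are high by the choice of the genes, and 5 were called after beads. Over all genes the share was 22.1% of 14507. The 5 calls cannot be read against that share, since both groups compared are high by the choice. Under the limits given above, *Eml1*, *Ypel4* and *Myof* were among the 5 leading rises in unstimulated cells only. *Scin*, *Lhfpl2* and *Fgfr1* were among those in stimulated cells only. That choice favours a fall of *Eml1*, *Ypel4* and *Myof* and a rise of *Scin*, *Lhfpl2* and *Fgfr1* here. *Ramp3* rose by 1.20 (SE 0.29, adjusted p = 0.00362) and *Scin* by 1.54 (SE 0.34, adjusted p = 0.00230). *Fgfr1* fell by 1.93 (SE 0.14, adjusted p = 2.04e-06), *Eml1* by 1.51 (SE 0.30, adjusted p = 0.00110) and *Ypel4* by 1.46 (SE 0.28, adjusted p = 0.000838). *Sgip1* (-0.54, adjusted p = 0.00600) and *Myof* (-0.84, adjusted p = 0.00390) fell by less than 2-fold, with every stimulated PGE2 sample below every unstimulated PGE2 sample. *Lhfpl2* (0.43, 95% interval -0.31 to 1.17, adjusted p = 0.279) did not pass. The call of *Ramp3* was lost without unstimulated PGE2 replicate 1, when its rise was 0.97 (adjusted p = 0.00601, over its alternatives 0.000148 to 0.0185). *Tcf7* was lower in stimulated samples too, and its part in these falls was not tested.

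**Figure D4:**
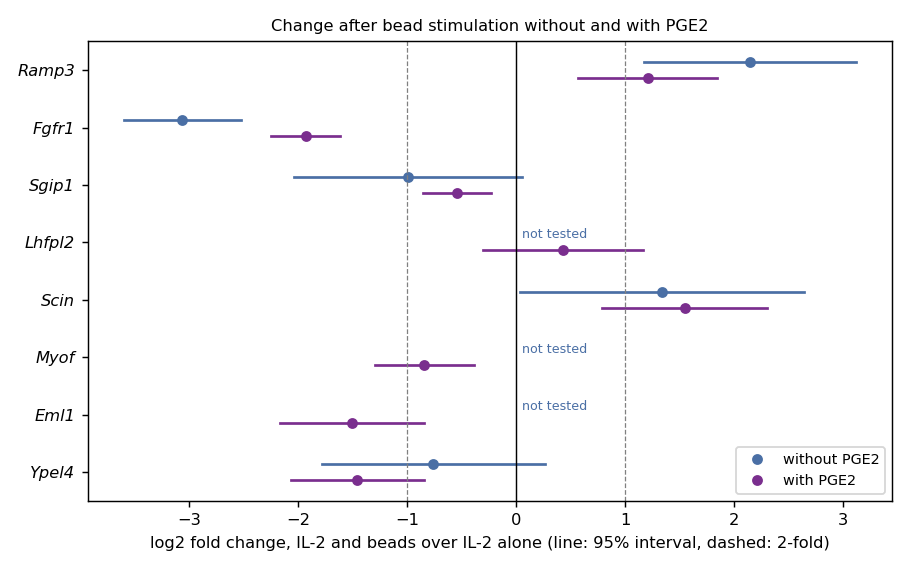
Log2 fold change after beads (IL-2 and beads over IL-2 alone) with its 95% interval for the 8 genes, without and with PGE2, where dashed lines mark 2-fold and genes that did not pass the filter are written as not tested. The points of *Ramp3* and *Scin* lie to the right of 0 and those of *Fgfr1*, *Sgip1* and *Ypel4* to the left in both. Without PGE2 the intervals of *Sgip1* and *Ypel4* include 0.

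The relatives of the 8 genes, 51 genes of their families or complexes, were compared between untreated and PGE2 samples. In unstimulated cells 31 were tested, of which 9 rose and 1 fell at an adjusted p below 0.05 (over all genes, 12.9% rose and 15.5% fell), with a median of 0.14 on the log2 scale against 0.00 over all genes. A single relative of the 31 was called, a share near the 3.38% of all genes. This was *Calca*, which encodes calcitonin and CGRP, the peptide ligand of the receptor to which RAMP proteins bind. *Calca* had 0 to 8 counts in untreated and 12 to 24 counts in PGE2 samples (2.19, SE 0.50, adjusted p = 0.00735), and with so few counts it passed the filter through the PGE2 samples. In stimulated cells, where it had 0 to 2 counts without and 7 to 21 with PGE2, it was not tested.

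Other genes of this system moved in both directions after beads. *Calcrl*, which encodes the receptor partner itself and was the most abundant of this list, had 305 to 340 counts in unstimulated untreated and 246 to 321 counts in unstimulated PGE2 samples, and its change after PGE2 did not pass in either state (-0.38, adjusted p = 0.183, and -0.09, adjusted p = 0.749). Beads lowered *Calcrl* by 1.44 (adjusted p = 1.57e-05) without and by 1.11 (adjusted p = 0.000461) with PGE2, while *Ramp3* rose. *Ramp1* fell with beads by 1.01 (adjusted p = 0.00623) and 1.17 (adjusted p = 0.000249). *Ramp2* rose by 2.59 (adjusted p = 8.91e-06) and 2.54 (adjusted p = 0.000178), from means of 0.265 CPM without and 0.173 CPM with PGE2.

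All 4 relatives of *Ypel4* rose after PGE2 in unstimulated cells, by 0.46 (*Ypel1*), 0.81 (*Ypel2*), 0.56 (*Ypel3*) and 0.35 (*Ypel5*), each by less than 2-fold. These were named after their values were seen. *Ypel3* was the most abundant, at 141 ± 22.1 CPM without and 204 ± 25.8 CPM with PGE2 (adjusted p = 0.00400). In stimulated cells *Ypel3* (0.99, SE 0.09, adjusted p = 0.000217) and *Ypel5* (0.70, SE 0.16, adjusted p = 0.0237) rose, while *Ypel1* (0.40) and *Ypel2* (0.98) did not pass. Beads lowered all 4 of them, by 1.20 to 2.23 without and by 1.22 to 1.75 with PGE2, and each was called. *Ypel4* thus moved in the same direction as its relatives after beads with PGE2, and its rise after PGE2 in unstimulated cells was 2.79 against at most 0.81.

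In stimulated cells 29 relatives were tested and edgeR called 0, against 1.75% of all genes, and DESeq2 also called 0. At an unadjusted p below 0.05 there were 9 of 29, a share near that of all genes (3761 of 13922). At an adjusted p below 0.05, 4 rose (*Ypel3*, *Ypel5*, *Fcho2* and *Flii*) and 0 fell, against 6.04% and 3.8% of all genes. *Fcho2*, an endocytic adaptor related to SGIP1, rose by 0.67 (adjusted p = 0.0177). The more abundant *Fcho1* of the same family did not move with it. Its means without and with PGE2 were 175 and 171 CPM in stimulated and 229 and 228 CPM in unstimulated cells. *Ypel3* lay just under 2-fold and *Calca* just under the filter. The count of calls was unstable, at 0 to 3 when each sample was left out in turn. It was 1 without stimulated untreated replicate 1, 2 without stimulated untreated replicate 3 or 4, 3 without stimulated PGE2 replicate 1 and 2 without stimulated PGE2 replicate 2. Without any other single sample it stayed at 0.

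The most abundant relatives of the other genes were expressed far above them. In unstimulated untreated cells the endocytic AP-2 subunit *Ap2s1* had a mean of 61.2 FPKM, the actin-capping gelsolin relative *Capg* 35.1, *Eml3* 25.9 and the FGF receptor adaptor *Frs2* 4.07 FPKM. Their changes after PGE2 were 0.15, 0.12, -0.15 and 0.06 on the log2 scale in unstimulated and 0.17, -0.36, -0.07 and 0.18 in stimulated cells, and none passed. *Eml4* was the most abundant EML gene in stimulated cells (27.2 FPKM without PGE2) and fell by 0.31 (adjusted p = 0.00114) after PGE2 in unstimulated cells. Of the EML relatives 1 rose and 1 fell there at an adjusted p below 0.05, and the mean of *Eml2* went from 45.8 to 59.3 CPM. The ferlin relative *Fer1l5* (0.301 FPKM) changed by 0.01 (adjusted p = 0.986), and *Lhfpl5*, the only LHFPL relative tested (0.129 FPKM), by 0.46 (adjusted p = 0.554).

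**Figure D5:**
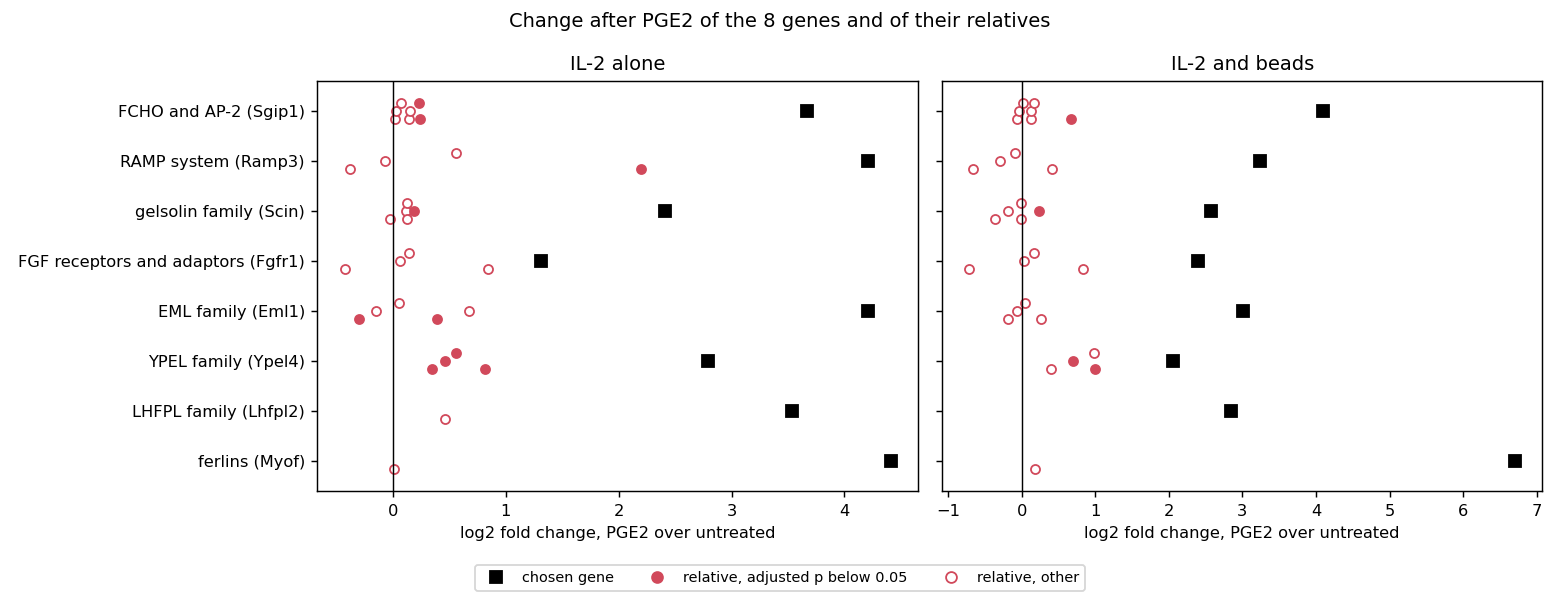
Log2 fold change after PGE2 of the 8 genes (squares) and of their tested relatives (circles, filled where the adjusted p was below 0.05), by family, in unstimulated (left) and stimulated (right) cells. The relatives lie between about -1 and 1 apart from *Calca* in the RAMP system (2.19 in unstimulated cells), and all 4 YPEL relatives are filled on the left.

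Genes of the path from PGE2 to cAMP were listed as well, 28 in all, of which 27 were tested. In unstimulated cells 9 rose and 4 fell at an adjusted p below 0.05, with a median of 0.15, and 3 were called, where over all genes 12.9% rose, 15.5% fell and 3.38% were called. The called genes were *Crem*, a cAMP-responsive transcription factor (1.67, adjusted p = 1.81e-05), *Rgs2*, a regulator of G protein signalling (1.89, adjusted p = 0.000180), and *Fosl2*, an AP-1 subunit (1.56, adjusted p = 3.63e-05). In stimulated cells 6 rose and 2 fell, with a median of 0.04, where over all genes 6.04% rose, 3.8% fell and 1.75% were called. Called there were *Crem* (1.45, adjusted p = 0.000303) and *Pde4d*, a cAMP phosphodiesterase (1.04, adjusted p = 0.00152). *Ptger4*, the EP4 gene and the more abundant of both PGE2 receptors here, fell by 0.57 (adjusted p = 0.000101) and 0.90 (adjusted p = 0.00455). *Ptger2*, the EP2 gene, rose by 0.34 (adjusted p = 0.0269) in unstimulated and fell by 0.90 (adjusted p = 0.00291) in stimulated cells.

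The gene whose pattern was most like that of the 8 genes was *Crem*. Likeness was measured as Pearson's correlation, over the 16 samples, between a gene's log2 CPM and the mean z score of the 8 genes, among 12247 other genes whose mean was 1 CPM or more. The 8 genes were chosen for their rises after PGE2, so any gene raised by PGE2 in both states is favoured by this measure. The points also share their libraries and 4 group means, so the values are descriptions. *Crem* had 0.98, followed by *Slc16a3* (0.97), *Cmip* (0.96), *Tsc22d1* (0.96), *Gng4* (0.95), *Prnp* (0.95), *Prkca* (0.95), *Ecm1* (0.95), *Foxj1* (0.95) and *Irs2* (0.94). By Spearman's correlation 2 of these 10 were again among the leading 10, and with a smaller prior count of 0.5 in the log2 CPM 9 were. *Crem* went from 73.7 ± 18.1 to 232 ± 12.8 CPM (SD, n = 4) after PGE2 in unstimulated and from 81.9 ± 16.4 to 223 ± 18.3 CPM in stimulated cells, and beads did not change it beyond the test's threshold in either state.

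Taken singly, the genes had different closest partners. *Ramp3* was closest to *Fasl* (0.98), the gene of the death ligand FasL, *Scin* to *Plxnc1* (0.98) and *Fgfr1* to *Gm26809* (0.98). *Ypel4* was closest to *Gas8* (0.97), *Sgip1* to *Ecm1* (0.96), *Myof* to *Irs2* (0.96), *Eml1* to *Prkca* (0.96) and *Lhfpl2* to *Mov10* (0.93). No closest partner was shared between genes.

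The counts of *Sgip1*, *Ramp3*, *Fgfr1* and *Eml1* are slightly uncertain, because 1.66% (*Fgfr1*) to 7.32% (*Ramp3*) of their exon bases lie under a gene on the opposite strand and the use of strand in counting is not given in the sources used here. These opposite genes had at most 0.366 CPM in any sample. *Lhfpl2*, *Scin*, *Myof* and *Ypel4* share no exon base with another gene. The genes were of unlike size, from 1380 exon bases in *Ramp3* to 12603 in *Myof*, against a median of 3635 over the genes tested.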

How the data were processed

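RNA was measured in 16 samples, 4 in each of 4 groups set by the labels. Per the labels and the paper, the authors made poly(A)-selected paired-end libraries, aligned reads to GRCm38 with HISAT2 2.0.5 and counted them per gene with featureCounts 1.5.0-p3, and the deposited counts are not normalized. The authors also deposited FPKM values, used here for levels per length and in alternatives. Annotation release and strand use are not given in the sources used here.

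The count table was fitted whole with edgeR 4.0.16 in R 4.3.3 (filterByExpr with a minimum count of 10, TMM, glmQLFit and glmQLFTest, two-sided, Benjamini-Hochberg), 4 against 4 samples without covariate. Genes were called where the adjusted p was under 0.05 and the change 2-fold or more. CPM used 1 set of TMM factors over 16 samples, and log2 CPM a prior count of 2. On simulated counts the fits recovered most of the genes made to change. The 8 genes, their relatives, pathway genes, markers and tests were chosen with earlier results of these data known. Named are the 8 genes, those next to them in rank, the 10 most alike in pattern, and relatives or pathway genes that were called after PGE2 or most abundant in their family. Other relatives and pathway genes, among them *Ramp1*, *Ramp2*, *Fcho2* and *Ptger2*, were named outside this rule with their values known. Nothing says whether replicates were separate cultures or animals, so p-values measure the spread between these samples.

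Deviations from group means of same-numbered samples correlated at 0.0448 to 0.441. Every pair was over 0.1 in both PGE2 comparisons and in that of beads without PGE2 (lowest 0.112), but not for beads with PGE2. Differently numbered samples reached 0.259 for PGE2 in stimulated cells (lowest same-numbered 0.193) and 0.134 for beads without PGE2. For PGE2 in unstimulated cells they reached 0.0969 (lowest same-numbered 0.138). A cut of 0.1 thus does not settle which samples are pairs. The main fits were left unpaired, and the replicate number as a block was an alternative. Alternatives were DESeq2 1.42.0, RLE factors, no filter, 1 fit of 16 samples, the replicate block, limma 3.58.1 and leaving out each sample. The limma fits used log2(FPKM + 1) with and without a minimum mean of 1 FPKM, and log2(FPKM + 0.1) with that minimum. The count without a fold threshold was added after seeing the data. Depth was 22678254 to 42950763 counts per sample, and intervals on counts cover counting error only. Sequences came from RefSeq promoter windows (GRCm38.p6) and gene models from GENCODE M21, read with Python 3.11.15.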

Additional observations from a re-analysis of the deposited data

Results flagged for a closer look

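In the stimulated untreated group 1 sample stood away from the other 3 for 2 of the 8 genes, by Dixon's ratio of its gap to the range of the group. For *Myof* replicate 4 had 0.0422 CPM (1 count) and the others 0. For *Ypel4* replicate 4 had 1.01 CPM and the others 0.257 to 0.318. These were 2 of the 32 groups compared (8 genes in 4 groups), and chance flags about 1 in 20 where values are not near 0 counts. That rate does not apply to *Myof*, since 3 samples at 0 and 1 above it always give a ratio of 1. The same library was not apart for the other 6 genes.

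The change after PGE2 differed between stimulated and unstimulated cells, by the interaction term of 1 edgeR fit of 16 samples and 15096 genes (113 at an adjusted p below 0.05), for 3 genes of the path from PGE2 to cAMP. Stimulated minus unstimulated, the difference was -1.23 for *Ptger2* (adjusted p = 0.00336), -1.67 for *Rgs2* (adjusted p = 0.00624) and -0.45 for *Per1*, a clock gene with a cAMP response (adjusted p = 0.0125). *Ptger2* rose from 6.15 to 7.70 CPM in unstimulated and fell from 28.6 to 15.3 CPM in stimulated cells. *Rgs2* went from 9.19 to 33.9 CPM and from 45.3 to 52.2 CPM. No cause was tested.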

How the results depend on the processing

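Depth limited *Myof*, *Lhfpl2* and *Eml1* most, with at most 15 counts over 4 samples in their unstimulated untreated groups, and the fitted change of *Myof* after PGE2 moved to 6.28 without stimulated untreated replicate 1 and to 8.31 without replicate 4. The other 190 recomputed PGE2 effects moved by less than the spread between replicates, and no value changed sign. Called after beads without PGE2 were 2 of the 8 genes, 4 without the filter (*Myof* and *Scin* joined *Fgfr1* and *Ramp3*) and 1 under each of the 3 limma fits on FPKM. The limma fits with a minimum FPKM tested 1 gene, and a pseudocount shrinks changes of low values. With PGE2, 5 were called, 1 with log2(FPKM + 1) with or without the minimum and 2 with log2(FPKM + 0.1). Of the relatives, 1 was called after PGE2 in unstimulated cells, 0 under the limma fits, 10 without a fold threshold and 2 without unstimulated PGE2 replicate 1, when *Frs3* was added. In stimulated cells 0 were called, 4 without a fold threshold, and 1 (*Calca*) without the filter or in 1 fit of 16 samples. Leaving out each sample in turn gave 2 to 3 and 4 to 5 of the 8 genes after beads without and with PGE2, and 1 to 2 and 0 to 3 relatives in unstimulated and stimulated cells. With the replicate block as pairing the counts were 3 and 5 of the 8 genes and 1 and 0 relatives. Apart from *Scin* it changed no call. Over all genes, calls went from 490 to 560 and from 243 to 349 for PGE2 and from 3301 to 3317 and from 3210 to 3234 for beads. Among tests of beads on single genes, 175 kept their side of the threshold, 6 newly passed and 7 no longer did. Of these 7, *Ramp3* lost its call without unstimulated PGE2 replicate 1 (0.97), and the others were limma fits on log2(FPKM + 1) for *Fgfr1* (-0.47 without and -0.73 with PGE2), *Scin* (0.54), *Eml1* (-0.23) and *Ypel4* (-0.78).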

Other observations

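Around *Sgip1*, chosen after their values were seen, another gene was called after PGE2 in both states and a further one in unstimulated cells. *Tctex1d1* (chr4:102978606-103005594, plus strand), which starts 4978 bases beyond the end of *Sgip1*, was at 0 to 0.166 CPM in unstimulated untreated and at 0.534 to 0.597 CPM in unstimulated PGE2 samples (log2 change 2.26, SE 0.45), and passed the filter on low counts only through the PGE2 samples. In stimulated cells, at 0 to 0.0807 CPM without and 0.0837 to 0.386 CPM with PGE2, it was not tested. *Wdr78* (chr4:103038065-103114555, minus strand), a gene of ciliary dynein 64437 bases beyond *Sgip1*, was at 8.77 to 12.1 CPM without and at 23.5 to 31.3 CPM with PGE2 in unstimulated cells (1.47, adjusted p = 1.05e-05). In stimulated cells *Wdr78* was at 7.51 to 9.73 CPM without and at 17.0 to 22.1 CPM with PGE2 (1.24, adjusted p = 0.000416).

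Within 100 kb of the 8 genes, 23 other genes were tested in unstimulated cells and 3 were called, *Tctex1d1* among them, against 3.38% of all genes. The third was *Timm10*, a mitochondrial import chaperone 88342 bases from *Ypel4*, which fell (-1.34, adjusted p = 8.97e-05) from 9.34 to 14.3 CPM to 4.00 to 5.50 CPM. In stimulated cells 21 were tested and 1, *Wdr78*, was called, against 1.75%. No neighbour of *Ramp3*, *Myof*, *Eml1*, *Scin*, *Lhfpl2* or *Fgfr1* was called in either state.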
